A study of Mus musculus with 8 samples.

Results

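Primitive streak cells of E7.5 mouse chimaeras were examined here as 379 cells of the 12655 E7.5 cells that passed quality limits (49866 cells passed in all 8 libraries). A cell was counted as a streak cell when it held at least 1 UMI (1 counted RNA molecule) of T, at least 1 UMI in at least 2 of Mixl1, Eomes, Evx1 and Wnt3, and no UMI of Mesp1, Nkx1-2 or Noto. The cells were thus chosen by the measured counts of these 8 genes, whose levels are given as a description. The Tet-TKO library gave 296 of the 379 from 5513 cells, and the library of WT host cells gave 83 from 7142.

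The primitive streak is the posterior furrow of the epiblast through which cells leave the epithelium and become mesoderm and definitive endoderm. T (Brachyury) and Mixl1 are transcription factors of the whole streak, Eomes is the T-box factor of its anterior and early part, Evx1 is a homeobox gene of its posterior part, and Wnt3 is the ligand that induces it. Nodal, WNT, BMP and FGF signals pattern the streak from front to back, and Mesp1, which the rule bars, marks cells that have left it as nascent mesoderm.

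The chimaeras were made by injecting embryonic stem cells that lack Tet1, Tet2 and Tet3, the enzymes that oxidise 5-methylcytosine, into C57BL/6J blastocysts. The stem cells were of mixed C57BL/6J-129Sv background, 1 line, and carried H2B-tdTomato under the CAG promoter. Embryos were pooled, dissociated and sorted into tdTomato-positive cells (Tet-TKO) and tdTomato-negative cells (WT host), and 10x 3′ RNA libraries were made from each. E7.5 had 1 library per genotype, and E8.5 had 4 Tet-TKO and 2 WT host libraries. Genotype and strain therefore cannot be told apart, injected and host cells also differ in origin, and a host embryo supplies extraembryonic tissues to which injected stem cells rarely contribute.

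With 1 library per genotype at E7.5 no test between genotypes was possible, and intervals there cover counting error only. The 2 E7.5 libraries held 105670868 UMIs (Tet-TKO) and 103814649 UMIs (WT host), and kept cells had a median of 20741 and 14193 UMIs. Streak cells had a median of 22413 UMIs in Tet-TKO and 15317 in WT host, with 1.13% and 1.11% of UMIs from mitochondrial genes. tdTomato was detected in 67.2% of Tet-TKO streak cells and in 1.20% of WT host streak cells. The libraries shared 11 cell barcodes.

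Part of the cells that met the rule also held extraembryonic markers, mainly in WT host. Of the 83 WT host streak cells, 22 (26.5%) also held at least 5 of 12 extraembryonic ectoderm markers or at least 5 of 15 visceral endoderm markers, against 7 of 296 Tet-TKO streak cells (2.36%). Over all kept cells the same markers were held by 36.95% of WT host and 1.995% of Tet-TKO cells. The summed level of the extraembryonic ectoderm list in streak cells was 138 CPM (UMIs of a gene scaled to a common library total) in Tet-TKO and 546 CPM in WT host, and that of the visceral endoderm list was 349 and 2205 CPM. Without the marked cells the first list stood at 137 and 153 CPM and the second at 333 and 447 CPM. Apoe made up most of the second list there, at 266 and 257 CPM. Spink1 (24.2 and 91.9 CPM), Ttr (0.954 and 19.5 CPM) and Sox17 (25.9 and 47.1 CPM) remained lower in Tet-TKO. Of 3 genes of that list with at least 50 UMIs over both libraries, 1 (Spink1) was at least 2-fold lower and 0 were higher. The part of visceral endoderm cells in the values without marked cells was not tested. Elf5, which defines extraembryonic ectoderm, stood at 0.464 and 96.4 CPM with the marked cells. Values are given below for all streak cells and, where they differ, for the 289 Tet-TKO and 61 WT host streak cells without these markers, called unmarked cells.

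Streak cells made up a larger share of the Tet-TKO library. Their share was 5.37% in Tet-TKO (95% exact binomial interval 4.79 to 6.00%) against 1.16% in WT host (0.927 to 1.44%), a ratio of 4.62. When every cell was thinned to 5000 UMIs before the rule was applied, the shares were 3.099% and 0.465%, a ratio of 6.66. Among unmarked cells the shares were 5.35% and 1.35%, a ratio of 3.95, and with thinning as well 3.12% and 0.699%, a ratio of 4.47. Demanding 2 UMIs of T gave 3.99% and 0.686%. The Tet-TKO interval lay above the WT host interval in each of these, but with 1 library each the spread between embryos or sorts is not known.

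**Figure D1:**
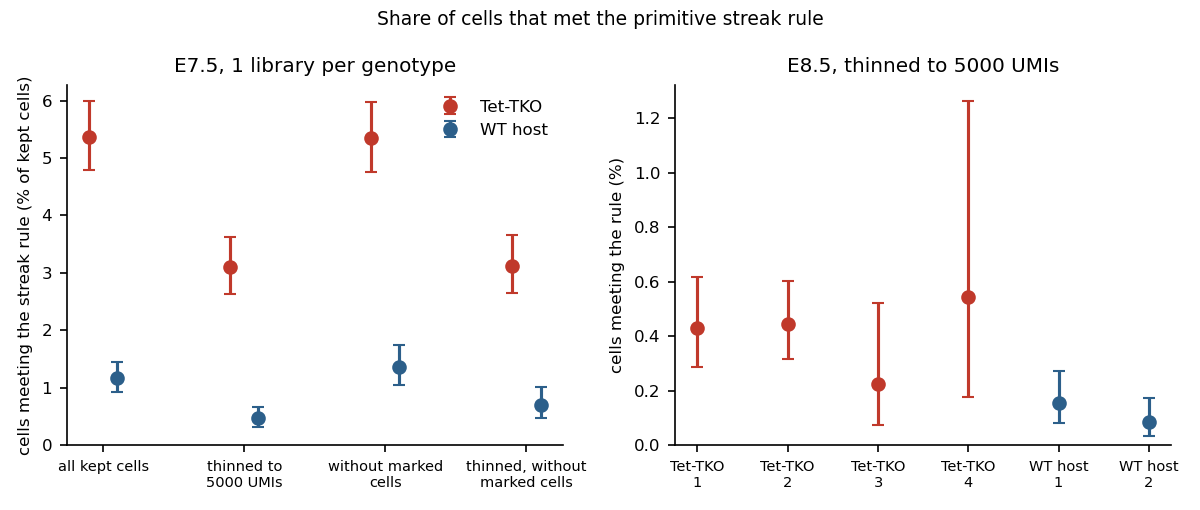
The left panel plots the share of kept E7.5 cells (%) that met the streak rule in the Tet-TKO and WT host library under 4 treatments of depth and extraembryonic markers, and the right panel the share in each of the 6 E8.5 libraries after thinning to 5000 UMIs. Bars are 95% exact binomial intervals, and at E7.5 the Tet-TKO share lay between 3.099 and 5.37% and the WT host share between 0.465 and 1.35%.

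Cells with visceral endoderm markers, a tissue that should lack T, served as the background level. In the WT host library T was detected in 8.97% of the 870 cells with at least 5 such markers (median 12992 UMIs) and in 28.8% of unmarked cells (median 13489 UMIs). The full streak rule was met by 0.690% of those 870 cells (0.253 to 1.50%) and by 1.35% of unmarked WT host cells (1.04 to 1.74%). These 2 intervals overlap, so some WT host streak cells cannot be told apart from background by the rule alone. The background is not clean, since Eomes, a rule gene, was detected in 27.8% of those 870 cells. It was detected in 73.7% of WT host cells with extraembryonic ectoderm markers and 15.9% of unmarked WT host cells. The intervals overlap in the Tet-TKO library too, where the share meeting the rule was no lower in marked than in unmarked cells. The marked cells there were few, so the comparison cannot decide, and background is not set apart from Tet-TKO streak cells either. Mixl1 was detected in 39.5% of Tet-TKO cells with visceral endoderm markers and in 37.6% of unmarked cells of the Tet-TKO library. In that library 81 cells held the visceral endoderm markers, with a median of 4974 UMIs, T was detected in 34.6% of them and 5 of them (6.17%, 2.03 to 13.8%) met the rule, against 5.35% of unmarked Tet-TKO cells (4.76 to 5.98%). Among cells with extraembryonic ectoderm markers the rule was met by 2 of 29 in Tet-TKO (6.90%, 0.846 to 22.8%) and by 0.930% of 1827 in WT host (0.543 to 1.49%). T was detected in 62.1% of those 29 Tet-TKO cells (median 22488 UMIs) and in 53.7% of unmarked Tet-TKO cells (median 20817 UMIs).

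The 2 libraries differed at each step of the rule. T was detected in 53.5% of kept cells of the Tet-TKO library and 23.2% of the other, and T with at least 2 of the 4 other genes in 1687 and 434 cells. Of these, 1288 Tet-TKO and 260 WT host cells were removed because they held Mesp1, 303 and 155 because they held Nkx1-2, and 3 and 7 because they held Noto (a cell can hold more than 1). All 4 genes Mixl1, Eomes, Evx1 and Wnt3 were present in 43 Tet-TKO and 4 WT host streak cells, 3 of them in 93 and 11, and 2 of them in 160 and 68. T rested on a single UMI in 76 Tet-TKO and 34 WT host streak cells. Just outside the rule, with T and exactly 1 of the 4, stood 231 Tet-TKO and 328 WT host cells. T itself was at 205 CPM (Tet-TKO) and 248 CPM (WT host) in members with exactly 2 of the 4 genes, and at 148 and 117 CPM in those just outside.

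Summed over all streak cells, no gene of the 5 that the rule demanded differed by 2-fold between the genotypes. T stood at 226 CPM in Tet-TKO and 261 CPM in WT host streak cells, and Mixl1 at 107 and 102 CPM. Eomes was at 166 and 135 CPM, Evx1 at 51.7 and 42.9 CPM, and Wnt3 at 42.7 and 26.0 CPM. With the rule applied to thinned cells, Eomes (log2 ratio of Tet-TKO over WT host 1.16) and Wnt3 (1.16, on 6 host UMIs) passed 2-fold. Wnt3 was detected in 56.8% and 36.1% of streak cells and Evx1 in 62.2% and 45.8%, at the different depths given above.

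The same rule was applied to the E8.5 libraries, which had no part in choosing the cells. After thinning, the share of cells that met it was 0.429, 0.443, 0.224 and 0.543% across the Tet-TKO libraries, numbered 1 to 4 (0.410 ± 0.134%, SD, n = 4). The pair of host libraries, numbered 1 and 2, gave 0.156 and 0.0842% (0.120 ± 0.0506%, SD, n = 2). All 4 Tet-TKO libraries lay above both WT host libraries, a difference of 0.290 percentage points. The exact permutation test over the 15 groupings, with the smaller one-sided p multiplied by 2, gave p = 0.133. That is the smallest p that this form of the test allows for 4 against 2 libraries. Tet-TKO libraries 3 and 4 each contributed 5 such cells. Whether the E8.5 libraries came from separate pools of embryos is not given in the sources used here, so p-values measure the spread between these libraries, which may be technical.

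To place the streak cells, they were set beside 2 other sets of cells in the same libraries. Epiblast cells (428 Tet-TKO, 897 WT host) held Pou5f1 and at least 2 of Utf1, Slc7a3, Pim2 and Sox2 but none of T, Mixl1, Eomes, Evx1, Wnt3 and Mesp1. Nascent mesoderm cells (1019 and 381) held Mesp1 and at least 2 of Mixl1, Lefty2, Snai1, Tbx6 and Msgn1 but no Noto or Nkx1-2. A gene was counted as different when its summed CPM differed by at least 2-fold the same way in both libraries, among genes with enough UMIs. Genes named in these 3 rules differ by construction.

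Streak cells held more of the signalling and early mesendoderm genes than epiblast cells. Of 9384 genes measured, 184 (1.96%) were higher and 135 (1.44%) lower in streak cells in both libraries. Of 20 measured streak and posterior genes that the streak rule did not use, 15 were higher and none was lower. Fgf8, the FGF ligand that cells need to leave the streak, stood at 27.3 CPM in epiblast and 300 CPM in streak cells of Tet-TKO and at 18.4 and 159 CPM in WT host. Nodal, the ligand that forms the streak, stood at 6.68 and 45.2 CPM in Tet-TKO and at 2.84 and 19.9 CPM in WT host. Its co-receptor Tdgf1 stood at 48.0 and 327 CPM in Tet-TKO and at 10.3 and 194 CPM in WT host. Gsc, an anterior streak factor, stood at 2.55 and 56.5 CPM in Tet-TKO and at 2.44 and 56.6 CPM in WT host.

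Several pathways were represented among the genes higher in streak than epiblast cells. They included 8 of 10 measured genes of the anterior streak, node and endoderm list (Foxa2, Gsc, Sox17 and Hhex among them, but also the caudal gene Cdx2). With them came 5 of 15 BMP genes (Bmp2, Bmp4, Bmp7, Smad6 and Msx1), 6 of 23 WNT genes, 4 of 16 FGF genes, and 7 of 24 adhesion and epithelial-mesenchymal transition genes. The visceral endoderm markers Sox17 and Spink1 (2 of 5 measured) were higher with them, as was Cdx2 of the extraembryonic ectoderm list (1 of 4), and Sox17 and Cdx2 belong to both kinds of list. In unmarked cells Spink1 stood at 0.369 CPM in epiblast and 24.2 CPM in streak cells of Tet-TKO and at 43.4 and 91.9 CPM in WT host, and Sox17 at 2.83 and 25.9 CPM and at 1.87 and 47.1 CPM. Foxa2 stood there at 2.09 and 34.3 CPM and at 2.13 and 32.2 CPM, and so kept its difference without the marked cells. Bmp2 stood at 1.70 and 24.4 CPM in Tet-TKO epiblast and streak cells and at 1.97 and 20.7 CPM in WT host. Cdh2 (N-cadherin), gained when cells leave the epithelium, stood at 8.38 and 48.3 CPM in Tet-TKO and at 14.7 and 47.4 CPM in WT host. Of 15 epiblast and pluripotency genes, 4 were lower (Sox2, Slc7a3, Enpp3 and Sox3), of which Sox2 and Slc7a3 were in the epiblast rule. Sox3, a neural-biased epiblast factor that no rule used, stood at 56.5 and 11.4 CPM in Tet-TKO and at 77.9 and 16.8 CPM in WT host. Dnmt3b, the de novo methyltransferase of the epiblast, stood at 984 and 500 CPM in Tet-TKO and at 1202 and 506 CPM in WT host. None of 24 S phase or 24 G2/M genes differed.

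Against nascent mesoderm, streak cells held more epithelial and epiblast transcripts at full depth. Of 8172 genes measured, 90 (1.10%) were higher and 78 (0.954%) lower in streak cells in both libraries. Of 13 epiblast and pluripotency genes, 8 were higher (Sox2, Nanog, Utf1, Pim2, Fgf5, Dnmt3b, Trh and L1td1) and none was lower. The epithelial genes Cdh1, Epcam, Cldn6 and Cldn7 were higher, and Cdh1 (E-cadherin) stood at 54.0 CPM in streak and 12.1 CPM in nascent mesoderm cells of Tet-TKO and at 56.6 and 16.9 CPM in WT host. The visceral endoderm markers Apoa1, Sox17 and Spink1 (3 of 6 measured) and the extraembryonic ectoderm gene Ascl2 (1 of 6) were higher with them. Without the marked cells Cdh1 stood at 53.7 and 12.1 CPM in Tet-TKO and at 50.5 and 12.6 CPM in WT host, and Epcam at 440 and 154 CPM and at 356 and 94.8 CPM. Foxa2, an endoderm and node factor, stood at 34.5 and 3.46 CPM in Tet-TKO and at 31.4 and 2.03 CPM in WT host. Snai1, the repressor of E-cadherin, stood at 28.5 and 115 CPM in Tet-TKO and at 25.3 and 109 CPM in WT host, although Snai1 was in the nascent mesoderm rule. Fn1, the extracellular matrix protein fibronectin, was in no rule and stood at 102 and 262 CPM in Tet-TKO and at 94.1 and 284 CPM in WT host. After thinning, of 5678 genes measured, 68 were higher and 82 lower than in epiblast cells. Of 2798 genes measured after thinning, 1 was higher and 10 lower than in nascent mesoderm cells. The fall from 90 of 8172 to 1 of 2798 is wider than the fall in genes measured, and its cause was not tested. The differences from nascent mesoderm thus hold for full depth. Without marked cells, 59 genes were higher than in nascent mesoderm cells.

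**Figure D2:**
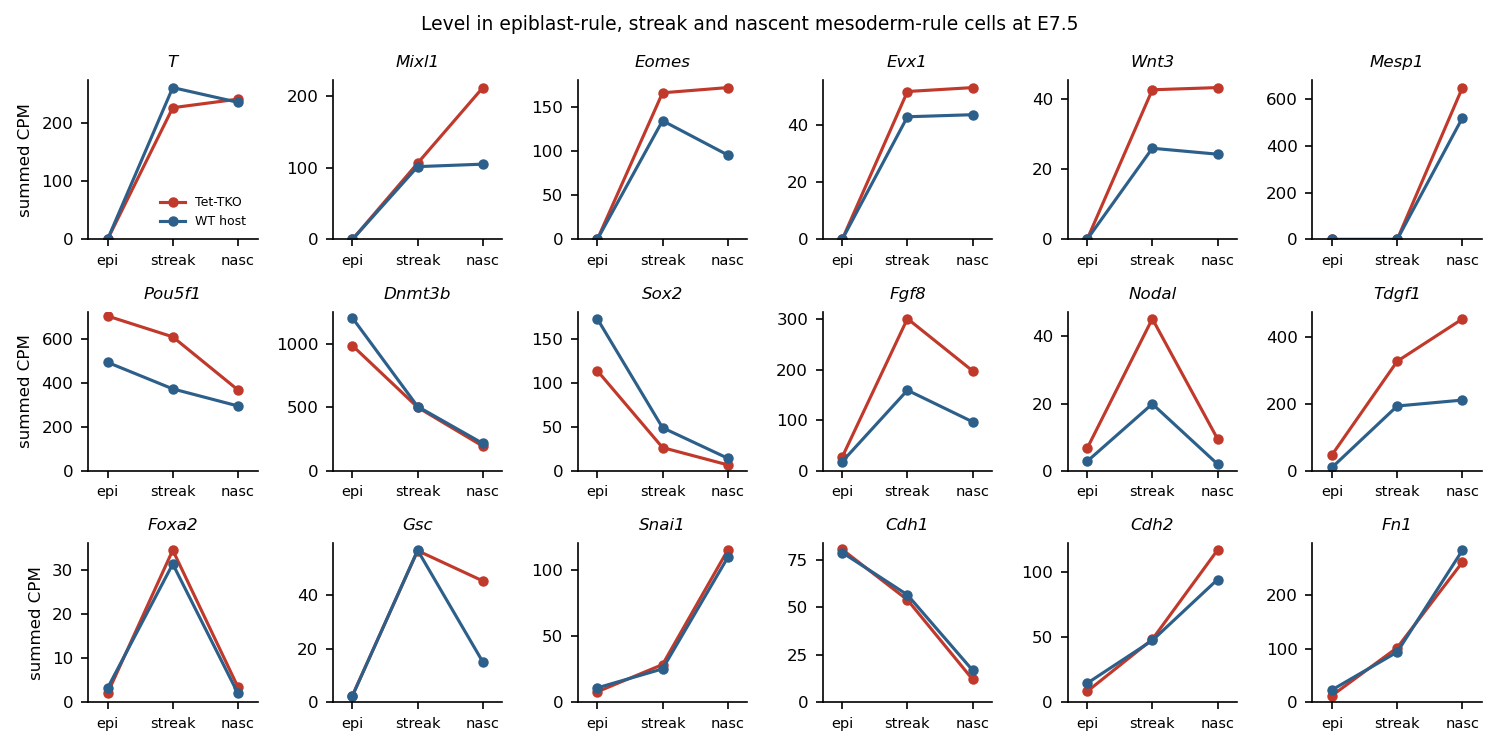
Summed CPM of 18 genes in epiblast (epi), streak and nascent mesoderm (nasc) cells of the Tet-TKO and WT host library at E7.5, 1 point per library, so that no error between replicates can be drawn. In both libraries Pou5f1, Dnmt3b, Sox2 and Cdh1 were highest in epiblast and lowest in nascent mesoderm cells, Snai1, Cdh2 and Fn1 the other way round, and Fgf8, Foxa2, Gsc and Nodal highest in streak cells, while T, Mixl1, Eomes, Evx1, Wnt3, Mesp1, Pou5f1, Sox2 and Snai1 took part in a rule.

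Between the genotypes, a few percent of genes differed by 2-fold in streak cells. A gene was measured with at least 50 UMIs over both libraries, and 8352 were. Of these, 249 (2.98%) were at least 2-fold higher and 304 (3.64%) at least 2-fold lower in Tet-TKO streak cells. Among unmarked cells 8090 genes were measured, of which 302 (3.73%) were higher and 183 (2.26%) lower. Scaling both sums by TMM in place of total UMIs shifted every log2 ratio, and so the median of all genes, by 0.13 and gave 337 higher and 226 lower genes in all streak cells. The log2 ratios quoted below are Tet-TKO over WT host CPM, and their intervals cover counting error only. With the rule applied to thinned cells, which left 148 Tet-TKO and 31 WT host members, 39 of 60 named genes that had passed 2-fold still did so in the same direction and 6 changed sign. Of the list totals that follow, each should be read against these percentages.

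Several genes of the streak and posterior list stood below the WT host level. Of 21 measured streak and posterior genes in unmarked cells, 7 were lower in Tet-TKO (among them Lhx1, Cdx1, Hoxb1, Dll3, Apln and Aplnr) and 2 higher (Nodal and Ifitm3), with a median log2 ratio of -0.43 against -0.03 over all measured genes. Cdx1, a caudal homeobox gene, stood at 11.9 CPM in Tet-TKO (77 UMIs) and 78.0 CPM in WT host (102 UMIs). Its log2 ratio was -2.71, and -3.17 in unmarked cells (interval -3.64 to -2.71). Its relative Cdx2 stood at 90.2 and 132 CPM, a log2 ratio of -0.55, and so did not pass 2-fold.

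Tbx6, the T-box factor of paraxial mesoderm (chromosome 7, 126781483 to 126785560, GRCm38), had the ratio farthest from equality among the measured genes of that list. It had 4 UMIs in the 296 Tet-TKO and 50 UMIs in the 83 WT host streak cells, or 0.619 and 38.3 CPM, and was detected in 1.01% and 20.5% of cells. In unmarked cells its log2 ratio was -6.02 (-7.97 to -4.54), but with fewer than 50 UMIs it was no longer counted there. Dll3, a Notch ligand of presomitic mesoderm, stood at 12.4 and 39.8 CPM, with a log2 ratio of -2.05 in unmarked cells (-2.60 to -1.48). Aldh1a2, which makes retinoic acid, stood at 4.64 and 41.3 CPM, and 1 unmarked cell held 76.7% of its unmarked Tet-TKO UMIs. Other genes of presomitic mesoderm and its signals were below 50 UMIs and were chosen after their values were seen. Hes7, the segmentation clock repressor, had 6 and 38 UMIs, Dll1 had 22 and 26, Wnt3a had 8 and 19, and Lefty2 had 19 and 23, each with a lower CPM in Tet-TKO.

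Of 22 Hox genes, 4 reached the 50 UMIs needed to be measured. Hoxb1 (chromosome 11, 96365752 to 96368256) stood at 18.9 CPM in Tet-TKO and 71.9 CPM in WT host, and was detected in 16.6% and 28.9% of cells. Its log2 ratio was -1.93, and -2.27 in unmarked cells (-2.69 to -1.84). Hoxb2 (log2 ratio -1.22 in unmarked cells) was lower as well, and Hoxd1 was higher, at 13.8 and 3.06 CPM, on 4 host UMIs. Summed over all 22 genes, the Hox level in streak cells was 88.8 CPM in Tet-TKO and 172 CPM in WT host.

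Anterior streak and endoderm genes split. Cer1, a secreted antagonist of Nodal, BMP and WNT (chromosome 4, 82881751 to 82885148), stood at 11.4 CPM in Tet-TKO and 107 CPM in WT host, with a log2 ratio of -3.23 and of -3.60 in unmarked cells (-4.03 to -3.17), and of -1.26 after thinning (5 host UMIs). A single cell held 28.2% of the Cer1 UMIs of unmarked host cells, and Cer1 was detected in 6.42% and 16.9% of cells. Lhx1, a LIM homeobox factor of the same region, stood at 59.6 and 144 CPM. It was detected in 26.6% of unmarked Tet-TKO and 27.9% of unmarked WT host cells, 1 cell held 26.0% of its UMIs in the unmarked host cells, and its log2 ratio of -1.27 turned to 0.41 after thinning (12 host UMIs). Hhex stood at 13.8 and 28.3 CPM and had a log2 ratio of 0.55 after thinning, on 7 Tet-TKO UMIs and 1 host UMI. Foxa2 (34.5 and 31.4 CPM), Gsc (56.5 and 56.6 CPM) and Fst (307 and 287 CPM) did not pass 2-fold. In all, 3 of 10 measured genes of this list were lower in unmarked cells and none was higher.

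The ligand Nodal (chromosome 10, 61417972 to 61425338) was the one of 12 measured genes of its pathway past 2-fold in unmarked cells. It stood at 45.2 CPM in Tet-TKO (292 UMIs) and 19.9 CPM in WT host (26 UMIs), and was detected in 46.3% and 14.5% of streak cells. Its log2 ratio was 1.18, and 1.87 in unmarked cells (1.01 to 2.89), with 11 host UMIs there. The feedback antagonists Lefty1 and Lefty2 had fewer than 50 UMIs and so were not counted. In unmarked cells Lefty1 stood at 3.34 CPM in Tet-TKO and 19.5 CPM in WT host, and Lefty2 at 3.02 and 25.3 CPM. The co-receptor Tdgf1 stood at 327 and 194 CPM, but its log2 ratio of 0.76 was 0.20 in unmarked cells. The intracellular mediators Smad2 (28.9 and 32.9 CPM) and Smad4 (79.8 and 93.4 CPM), the receptor Acvr2b (85.1 and 103 CPM) and the cofactor Drap1 (162 and 135 CPM) did not pass 2-fold.

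Of 22 measured WNT pathway genes in unmarked cells, the secreted antagonists Dkk1 and Sfrp1 were lower and no gene was higher. Dkk1 (chromosome 19, 30545863 to 30549665) stood at 13.6 and 87.2 CPM, with a log2 ratio of -2.22 in unmarked cells (-2.72 to -1.71). Sfrp1 stood at 20.4 and 54.3 CPM. After thinning the log2 ratio of Dkk1 over all streak cells went from -2.68 to -1.01 (8 host UMIs) and that of Sfrp1 from -1.41 to -0.75 (6 host UMIs). The WNT target genes Axin2 (38.5 and 41.3 CPM) and Sp5 (69.3 and 104 CPM) and the ligand Wnt5b (15.6 and 15.3 CPM) did not pass 2-fold. The median log2 ratio of the list was -0.38 in unmarked cells.

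Summed over all unmarked streak cells, 1 of 13 BMP genes and 3 of 17 FGF genes passed 2-fold. Of 13 BMP genes, only the target Msx2 passed 2-fold in unmarked cells, at 47.5 CPM in Tet-TKO and 14.5 CPM in WT host over all streak cells and with an unmarked log2 ratio of 2.22 (1.27 to 3.36) that rests on 9 host UMIs. The ligand Bmp4 stood at 51.4 and 53.6 CPM and the targets Id1 and Id3 at 281 and 240 CPM and at 403 and 329 CPM. Id2, which marked host cells carry, stood at 47.0 and 332 CPM, with a log2 ratio of -2.82 that was -0.54 in unmarked cells. Of 17 FGF genes, Spry1 was higher and Fgf17 and Spry4 lower in unmarked cells. The log2 ratio of Spry1 over all streak cells was 0.80 and turned to -0.45 after thinning, on 2 host UMIs. Fgf8 stood at 300 and 159 CPM, with log2 ratios of 0.92 in all and 0.48 in unmarked cells.

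**Figure D3:**
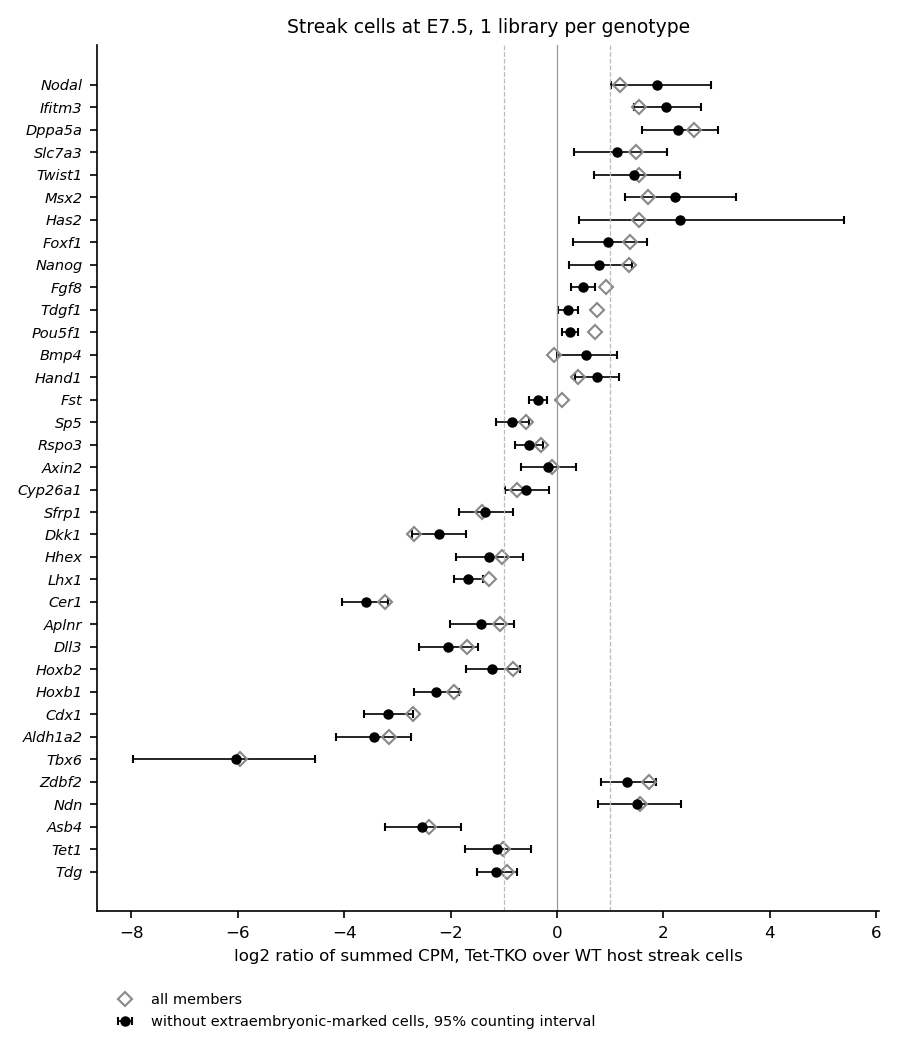
Log2 ratio of summed CPM, Tet-TKO over WT host streak cells at E7.5, for 36 genes. Filled points are unmarked cells with 95% counting intervals, open diamonds are all streak cells, and dashed lines mark 2-fold. Tbx6, Cer1, Aldh1a2 and Cdx1 lie furthest to the left, and Has2, Dppa5a, Msx2 and Ifitm3 furthest to the right.

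Some early epiblast and germ cell genes stood higher in Tet-TKO. Of 15 epiblast and pluripotency genes in unmarked cells, 3 were higher (Slc7a3, Dppa4 and Dppa5a), none was lower, and the median log2 ratio was 0.61. Over all streak cells 3 were higher (Nanog, Slc7a3 and Dppa5a), Utf1 was lower, at 78.4 and 158 CPM, and Dppa4, at 31.6 and 23.7 CPM, was within 2-fold. Dppa5a, an RNA-binding protein of pluripotent cells, stood at 100 and 16.8 CPM and was detected in 65.2% and 20.5% of streak cells, with an unmarked log2 ratio of 2.27 (1.59 to 3.03). Dppa4 was detected in 32.2% of unmarked Tet-TKO cells and in 1 unmarked WT host cell. Pou5f1 stood at 608 and 372 CPM, but its log2 ratio of 0.71 was 0.24 in unmarked cells. Nanog stood at 54.9 and 21.4 CPM, with log2 ratios of 1.36 in all and 0.78 in unmarked cells. Ifitm3, an interferon-induced membrane protein of early germ cells and streak, stood at 113 and 39.0 CPM, with an unmarked log2 ratio of 2.04 (1.45 to 2.71). Of 7 measured germ cell genes, Ifitm3, Dppa3 and Sprr2a3 were higher and none was lower in unmarked cells, where Dppa3 had 55 and 0 UMIs and Sprr2a3 136 and 1. The minimum for a measured gene is set on both libraries together, and unmarked cells held 6290256 UMIs in Tet-TKO and 870471 in WT host. With so few host UMIs, Dppa3 and Sprr2a3 were measured only because they were high in Tet-TKO, so they could count only as higher. In unmarked cells the same holds for Dppa4, and for Has2, Spry1, Gadd45b, Tal1 and Hoxd1, which are named in other lists.

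Of 23 measured adhesion and epithelial-mesenchymal transition genes, Twist1 and Has2 (on 2 host UMIs) were higher and Mmp14 lower in unmarked cells, and the median log2 ratio was 0.00. With so few host UMIs Has2 could count only as higher. Twist1, a mesenchymal bHLH factor (chromosome 12, 33957671 to 33959829), stood at 46.6 and 16.1 CPM, but 1 cell held 33.3% of its UMIs in the unmarked host cells. Cdh1 stood at 54.0 and 56.6 CPM, Cdh2 at 48.3 and 47.4 CPM, and Snai1 at 28.5 and 25.3 CPM. Of 12 nascent and other mesoderm genes, Twist1 alone passed 2-fold in unmarked cells, with a median log2 ratio of 0.10, and over all streak cells Foxf1 and Twist1 were higher and Tbx6 lower of 14, with a median of 0.33. Cell cycle genes did not separate the genotypes, since none of 24 S phase genes and none of 24 G2/M genes passed 2-fold. Of 16 glycolysis genes 1 did, the lactate carrier Slc16a1, at 71.2 and 213 CPM. The stress genes Fos, Junb and Hspb1 were lower in Tet-TKO over all streak cells, and none of 11 stress genes passed 2-fold in unmarked cells. Of 5 blood and endothelium markers Tal1, a blood and endothelial factor, was higher, with 70 and 4 UMIs over all streak cells.

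Of 12 measured DNA methylation genes in unmarked cells, Gadd45b was higher and Tet1 and Tdg were lower. The direction of Gadd45b rested on the marked cells, since its log2 ratio was 2.26 in unmarked cells (0.35 to 5.33, few host UMIs) and -1.24 over all streak cells, where it stood at 11.0 and 26.0 CPM on 71 and 34 UMIs. Tet1, one of the 3 disrupted genes, stood at 16.2 and 32.9 CPM, with an unmarked log2 ratio of -1.13 (-1.73 to -0.49). Transcripts of a disrupted gene can still be counted by a 3′ assay, so this level checks nothing about the deletion. Tet3 stood at 10.4 and 13.8 CPM and Tet2 at 2.32 and 3.06 CPM. Tdg, the glycosylase that excises the products of TET enzymes, stood at 40.8 and 78.8 CPM, with an unmarked log2 ratio of -1.14 (-1.51 to -0.75). After thinning the log2 ratio of Tdg was -0.26 (9 host UMIs) and that of Tet1 -0.45 (2 host UMIs), neither past 2-fold. Dnmt1 (91.8 and 88.8 CPM), Dnmt3a (35 and 27.5 CPM) and Dnmt3b (500 and 506 CPM) did not pass 2-fold. DNA methylation itself was not measured in these libraries.

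Of 22 measured imprinted genes in unmarked cells, 2 were higher (Ndn and Zdbf2) and 3 lower (H19, Cdkn1c and Asb4). Zdbf2 stood at 96.7 and 29.1 CPM, with an unmarked log2 ratio of 1.32 (0.82 to 1.86), and of 0.54 after thinning over all streak cells. Ndn stood at 51.8 and 17.6 CPM. Asb4 stood at 6.19 and 32.9 CPM, and 1 cell held 37.5% of its UMIs in the unmarked host cells. Snrpn stood at 336 and 165 CPM, with log2 ratios of 1.03 in all and 0.59 in unmarked cells. Peg3 (429 and 472 CPM) and Meg3 (321 and 342 CPM) did not pass 2-fold.

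Some of the widest ratios lay in sex-linked genes and gene copies. Xist, the RNA that silences an X chromosome, stood at 2.32 CPM in Tet-TKO and 128 CPM in WT host streak cells, while Y-linked Ddx3y stood at 3.09 and 25.3 CPM. Y-linked Eif2s3y stood at 5.11 and 10.7 CPM. Genotype cannot be told apart from this difference in sex-linked genes either. The ribosomal protein gene Rps3a1 stood at 352 and 4278 CPM and its near-identical copy Rps3a3 at 5144 and 398 CPM, whereas the pair together stood at 5496 and 4676 CPM. How reads divided between those copies is uncertain.

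The genotype ratios of streak cells were also read in the neighbouring sets, with no test of the difference between sets. Dppa5a was higher in Tet-TKO in all 3, with log2 ratios of 2.02 in epiblast, 2.58 in streak and 2.37 in nascent mesoderm cells. Nodal was higher in all 3 as well (1.24, 1.18 and 2.23), and Cdx1 lower in all 3 (-3.85, -2.71 and -1.30). Hoxb1 had ratios of -1.57, -1.93 and -0.86. Dkk1 had ratios of -0.67, -2.68 and 0.03. Twist1 had 2.23, 1.54 and -0.36. Tet1 (-1.23, -1.02 and -1.37) and Tdg (-1.42, -0.95 and -1.09) were lower in Tet-TKO in each set.

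Streak cells themselves divided by which of Eomes and Evx1 they held, a division chosen after the data were seen and read as a description. Among unmarked cells, Eomes without Evx1 was found in 102 Tet-TKO cells (35.3%) and 28 WT host cells (45.9%), and Evx1 without Eomes in 59 (20.4%) and 20 (32.8%). Both were held by 121 cells (41.9%) in Tet-TKO and 12 (19.7%) in WT host, where cells were shallower. The cells with Eomes alone and with Evx1 alone had like depths, with medians of 20425 and 20638 UMIs in Tet-TKO and 14705 and 14120 in WT host. Of 5635 genes with at least 50 Tet-TKO and 10 WT host UMIs, 48 (0.852%) were at least 2-fold higher on the Eomes side in both libraries and 32 (0.568%) on the Evx1 side.

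The 2 sides held anterior and posterior genes in both genotypes. Of 9 measured genes of the anterior streak, node and endoderm list, 5 stood on the Eomes side (Foxa2, Gsc, Lhx1, Otx2 and Trh). Cdx2, a caudal gene that this list also holds, stood on the Evx1 side. Gsc stood at 98.6 CPM on the Eomes side and 6.58 CPM on the Evx1 side in Tet-TKO, and at 118 CPM and none of its UMIs in WT host. Foxa2 stood at 56.1 and 0.822 CPM in Tet-TKO, and at 42.5 CPM and none in WT host. Of 13 epiblast and pluripotency genes 8 were on the Eomes side, among them Nanog, Otx2, Fgf5 and Dnmt3b. Otx2 and Trh are counted in both lists. Both measured Hox genes were on the Evx1 side, and Hoxb1 stood at 4.67 and 58.4 CPM in Tet-TKO and at 21.2 and 232 CPM in WT host. The Evx1 side also held Cdx2 (43.0 and 257 CPM in Tet-TKO, 47.2 and 303 CPM in WT host), Bmp4, Wnt5a, Wnt5b, Nkd1 and Hand1. Neither side held any of the 23 S phase or 24 G2/M genes measured.

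**Figure D4:**
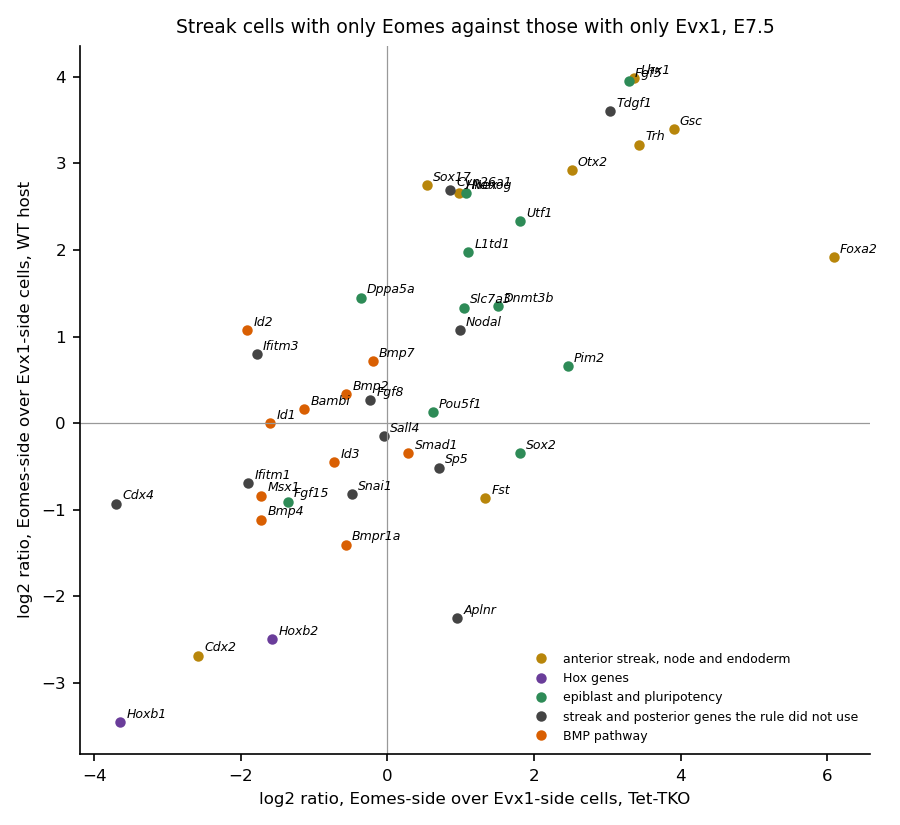
Each point is 1 gene of 5 lists, with the log2 ratio of its CPM in cells holding Eomes but not Evx1 over cells holding Evx1 but not Eomes, in Tet-TKO (horizontal) and WT host (vertical) unmarked streak cells at E7.5. Anterior genes such as Foxa2, Gsc, Trh and Lhx1 (drawn with Fgf5) lie at upper right and Hoxb1, Hoxb2 and Cdx2 at lower left, and a gene with no UMI on 1 side is drawn at the bound that 3 counts give.

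Genotype differences were then read within each side, again from 50 UMIs over both libraries upwards for list counts. On the Eomes side 181 of 5232 genes (3.46%) were at least 2-fold higher and 76 (1.45%) lower in Tet-TKO, and on the Evx1 side 179 of 3850 (4.65%) and 84 (2.18%). On the Eomes side Cer1 stood at 17.3 CPM in Tet-TKO and 267 CPM in WT host, and Dkk1 at 13.6 and 85 CPM. Of 3 measured visceral endoderm markers on that side, Spink1 (8.88 and 116 CPM) and Sox17 (23.8 and 75.5 CPM) were lower in Tet-TKO, while Apoe stood at 333 and 208 CPM. The summed level of that list was 380 CPM in Tet-TKO and 439 CPM in WT host, and that of the extraembryonic ectoderm list was 71.5 and 54.3 CPM. All 3 measured blood and endothelium markers were higher, namely Etv2 (104 and 30.7 CPM), Kdr (41.1 and 9.44 CPM, on 4 host UMIs) and Lmo2 (61.7 and 28.3 CPM), and the list summed to 236 and 75.5 CPM. With so few host UMIs Kdr was measured there only because it was high in Tet-TKO, so it could count only as higher. The part of any of these cells in the Eomes-side values was not tested. Hhex stood at 21.0 and 70.8 CPM, Lefty1 at 2.80 and 40.1 CPM and Lefty2 at 3.74 and 51.9 CPM on that side. On the Evx1 side Cdx1 stood at 29.6 and 266 CPM, Hoxb1 at 58.4 and 232 CPM, and Tbx6 at 1.64 and 86.1 CPM, while Cdx2 stood at 257 and 303 CPM. Mixl1 stood at 115 and 111 CPM on the Eomes side and at 60.8 and 146 CPM on the Evx1 side. Fst, an activin antagonist, stood at 334 and 321 CPM on the Eomes side and at 132 and 584 CPM on the Evx1 side. Ifitm3 stood at 70.1 and 26.0 CPM on the Eomes side and at 241 and 15 CPM on the Evx1 side, and Msx2 at 24.8 and 7.08 CPM and at 107 and 7.49 CPM, the host values of Ifitm3 on 11 and 4 UMIs and those of Msx2 on 3 and 2.

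Of 10 measured BMP genes on the Evx1 side, 7 were higher in Tet-TKO (Bmp4, Bmp7, Id1, Id2, Msx1, Msx2 and Bambi) and none was lower, with a median log2 ratio of 1.20 against 0.0075 over all measured genes. Bmp7 (47 and 5 UMIs) and Msx2 (130 and 2 UMIs) were measured there only because they were high in Tet-TKO. They could thus count only as higher. On the Eomes side 2 of 11 were higher (Bmpr1a and Msx2) and 1 lower (Id2). Msx2, with 53 and 3 UMIs, was measured on that side for the same reason. On the Evx1 side the ligands Bmp2 (34.5 and 18.7 CPM) and Bmp7 (38.6 and 18.7 CPM) had intervals that held 0, each on 5 host UMIs. Bmp4 stood there at 114 and 56.2 CPM (log2 ratio 1.02, 0.25 to 1.90), Id1 at 543 and 184 CPM (1.56, 1.14 to 2.01), Msx1 at 180 and 67.4 CPM (1.42, 0.72 to 2.20) and Id2 at 86.3 and 33.7 CPM (1.36, 0.38 to 2.53). On the Eomes side Bmp4, Id1 and Msx1 had intervals that held 0, and Id2 was lower, at 22.9 and 70.8 CPM (-1.63, -2.31 to -0.92). The mesoderm factors Hand1 (250 and 89.9 CPM) and Foxf1 (110 and 26.2 CPM) were higher on the Evx1 side as well. Id3, at 538 and 498 CPM, did not pass 2-fold. Of 3 measured germ cell genes on the Evx1 side, 2 were higher in Tet-TKO (Ifitm3 and Sprr2a3) and none was lower. Sprr2a3 had 88 and 1 UMIs there, Dppa3 38 and 0, and Tfap2c 36 and 3. With 1 host UMI, Sprr2a3 was measured there only because it was high in Tet-TKO, so it could count only as higher. The part of germ cell-like or other cells in the Evx1-side values, those of the BMP genes included, was not tested. The host values on the Evx1 side rest on 20 cells, and the difference between the sides was not tested.

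The nearest set of cells with replicate libraries was E8.5 cells that held T and no Noto, which numbered 1403, 1488, 416 and 204 in the Tet-TKO libraries and 700 and 511 in the host libraries. UMIs were summed per library and tested with edgeR (quasi-likelihood, called at an adjusted p of at most 0.01 and at least 2-fold). Of 15270 genes, 25 (0.164%) were higher and 108 (0.707%) lower in Tet-TKO, and 2479 had an unadjusted p under 0.05. DESeq2 called 76 and 351. These calls leaned on single libraries, since they numbered 2 in all without WT host library 2, 9 without WT host library 1, 16 without Tet-TKO library 3, 42 without Tet-TKO library 2 and 87 without Tet-TKO library 4. Without cells holding extraembryonic markers 11 genes were higher and 61 lower. Blood genes were among the lower calls (Hba-x, Klf1 and Lmo2, 3 of 14 tested), as were the visceral endoderm genes Afp, Rbp4 and Trf (3 of 14) and the extraembryonic ectoderm gene Elf5 (1 of 11), and the part of blood cells in the calls was not tested. In sums over cells, fewer cells of a kind and less RNA per cell cannot be told apart.

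Few genes of any kind were called at E8.5, and most of the E7.5 streak differences were not among them. With edgeR none of 28 streak and posterior genes, 22 Hox genes or 20 Nodal pathway genes was called. An unadjusted edgeR p under 0.05 was held by 6, 2 and 1 of them, against 2479 of all 15270 genes tested. With 0.164% of all tested genes called higher and 0.707% lower, lists of this size would hold few or no calls at the share of all genes. DESeq2 called 2 (Lhx1 and Cyp26a1), 0 and 0. Cdx1 stood at 103, 111, 63.9 and 67.2 CPM in Tet-TKO and 152 and 112 CPM in WT host, with a log2 fold change of -0.56 ± 0.28 (SE, adjusted p = 0.382 with edgeR), although its groups did not overlap. Under edgeR Hoxb1 had a log2 fold change of -0.14 (adjusted p = 0.748), Cer1 of 0.60 (adjusted p = 0.759), Dkk1 of 0.16 (adjusted p = 0.701) and Nodal of -0.44 (adjusted p = 0.743), each with overlapping groups. Tbx6 stood at 13.7, 19, 17.7 and 14.3 CPM in Tet-TKO and at 25.5 and 29.2 CPM in WT host, so that the groups did not overlap, but its adjusted p with edgeR was 0.0782. The share of all tested genes whose groups did not overlap is not given here, so a lack of overlap alone sets neither Cdx1 nor Tbx6 apart. Twist1 stood at 127, 98.6, 106 and 106 CPM and at 55.0 and 44.1 CPM, with a log2 fold change of 1.18 ± 0.16 and an adjusted p of 0.0104, just outside the threshold.

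Of the 248 genes higher in E7.5 Tet-TKO streak cells that were tested at E8.5, 19 (7.66%) were called higher there. They were 90.5% of the 21 E8.5 higher calls measured at E7.5. Many of the 19 were pseudogenes, gene copies or predicted genes without a name, such as Rps15a-ps8, Rps13-ps1, Pcna-ps2, Gm9825 and Gm8730. The sort marker tdTomato was also among them. Of 303 lower genes 27 (8.91%) were called lower, 60% of 45. Among unmarked cells the counts were 19 of 301 (6.31%) and 15 of 183 (8.20%), or 90.5% of 21 and 40.5% of 37 E8.5 calls, and 1 of the higher genes was called lower at E8.5. The E8.5 libraries are of the same stem cell line and the same pair of strains as the E7.5 libraries, so this overlap does not separate genotype from strain. Zdbf2 rose with a log2 fold change of 1.59 ± 0.21 (SE, adjusted p = 0.0096 with edgeR), from 38.0 and 34.6 CPM in WT host to 80.6, 88.1, 131 and 132 CPM in Tet-TKO. Under edgeR Ndn rose with a log2 fold change of 1.01 ± 0.12 (adjusted p = 0.00723) and Snrpn with 1.37 ± 0.15 (adjusted p = 0.00577). Asb4 fell, at 3.89, 2.10, 2.37 and 2.44 CPM in Tet-TKO and 14.5 and 10.7 CPM in WT host (log2 fold change -2.17 ± 0.29, edgeR adjusted p = 0.00983). Xist (log2 fold change -5.57) and Rps3a1 (-3.75) fell as well, and tdTomato rose (5.89). Each of these genes kept its direction without any 1 library. Rps3a1 stayed past the threshold throughout, but Zdbf2, Ndn, Snrpn, Asb4, tdTomato and Xist were no longer called without WT host library 2. The 4 imprinted genes also lost the call without WT host library 1 or Tet-TKO library 2 or 3, and tdTomato without WT host library 1. Zdbf2, Ndn and Snrpn lost it without the cells with extraembryonic markers.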

How the data were processed

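The authors deposited raw UMI counts per gene and barcode from 10x 3′ libraries, aligned to mm10 with Cell Ranger (5.0.0 in the methods, 3.1.0 in the file header). Barcodes were kept from 1500 UMIs upwards, if mitochondrial genes gave no more than 30% and ribosomal protein genes no more than 35% of UMIs. The streak rule, the gene lists and the Eomes and Evx1 division were chosen with earlier results of these data known. Counts were summed per library and set of cells and scaled to CPM. At E7.5, with 1 library per genotype, log2 ratios carry 95% exact conditional binomial intervals and no test, and genes needed 50 UMIs over both sums. A sum of 0 was replaced by a floor of 3 counts, which gives a bound. Cells were thinned to 5000 UMIs where depth could set a share. At E8.5, sums per library were tested with edgeR 4.0.16 (quasi-likelihood, TMM, filterByExpr, Benjamini-Hochberg) in R 4.3.3, with DESeq2 1.42.0 as an alternative. Counts were simulated for that comparison over 15270 genes, with a common dispersion for all genes. Of 200 genes changed by a log2 of 2, all drawn from above the median level, 99.5% were recovered, with 1 false call. This gives no power for smaller changes, for genes of low level or for genes of wider spread. Genes named are the rule's genes, the DNA methylation and sex-linked genes, the most abundant and the 2-fold different genes of each list, and the widest ratios, unless said otherwise, and some results are not reported here. Scrublet's automatic threshold marked 2 Tet-TKO cells at E7.5 (0.0363%) and so had not worked, and the highest scores at the expected rate (261 and 425 cells) were used as doublets in an alternative only. Total UMIs per library ranged from 65601218 to 136982886. Marker minimums of 5 for extraembryonic cells were set after the data were seen. Coordinates are GRCm38 (GENCODE vM21). Scripts used Python 3.11.15, scipy 1.17.1 and scanpy 1.11.5.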

Additional observations from a re-analysis of the deposited data

Results flagged for a closer look

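Over the 4 E8.5 Tet-TKO libraries 156 items were looked at, all of them genes in T-positive cells but for shares of cells. Of these items 9, all genes, had 1 library far from the rest by Dixon's test, and chance alone marks about 1 in 20 such groups. Library 1 was the highest for 5 of them. Eomes stood at 6.43 CPM there against 0.125 to 0.264 CPM in the others, Mesp1 at 50.6 against 8.02 to 14.8 CPM, and Tdgf1 at 12.5 against 0 to 0.897 CPM. Fgf5 stood at 4.59 against 0.251 to 0.391 CPM and Sox17 at 29.7 against 15.6 to 16.7 CPM in the same library. Library 2 was lowest for Skil, at 25.5 against 33.5 to 34.3 CPM, and highest for Apoa1, at 11.2 against 0.940 to 1.84 CPM. Library 4 was lowest for Evx1, at 37.5 against 43.5 to 44.3 CPM. Elf5 was found in library 3 alone, at 0.0527 CPM, a single UMI of the 18963308 summed there. With none in the other libraries, any count would have been flagged.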

How the results depend on the processing

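The larger Tet-TKO share at E7.5 kept its direction under all 8 alternatives run, with a ratio of 6.66 after thinning the one value that moved. Gene counts between the genotypes (higher, lower, total in Tet-TKO) were 92, 27 and 119 after thinning, 852, 962 and 1814 with a filter of 10 UMIs, and 852, 2438 and 3290 with no filter. Without marked cells 183 genes were lower. Against epiblast cells thinning gave 68 higher and 82 lower genes of 5678 measured, and against nascent mesoderm 1 and 10 of 2798. Without marked cells 59 were higher than in nascent mesoderm. Among named genes past 2-fold in all streak cells, the log2 ratio changed sign after thinning for Hhex (0.55), Lhx1 (0.41), Grb10 (0.19), Tfap2c (1.33), Tex19.1 (1.07) and Hspb1 (0.33). It changed sign without marked cells for Utf1 (0.86), Apoe (0.049), Tfap2c (0.97), Tex19.1 (1.47), Hspb1 (0.72), Krt19 (0.32) and Gadd45b (2.26), and with 2 UMIs of T for Sox17 (0.71). Of named genes within 2-fold, 28 of 75 changed sign after thinning (Evx1, Spry1, Fgf3, Bmp7, Wls and Drap1 among them), 15 of 76 without marked cells (Evx1, Mixl1, Bmp4 and Smad7 among them), 21 of 76 with 2 UMIs of T (Evx1 among them) and 5 to 9 of 76 under the other 4 settings. Thinning leaves fewer UMIs and cells, and the cause of the other changes was not tested. At E8.5 the calls (higher, lower, total) were 76, 351 and 427 with DESeq2, 87, 372 and 459 with no filter, 10, 50 and 60 with Tet-TKO libraries summed in pairs, 11, 45 and 56 with 2 UMIs of T, and 11, 61 and 72 without marked cells. Leaving out 1 library gave 0 to 16 higher, 2 to 82 lower and 2 to 98 in all. The E8.5 difference in share ranged from 0.245 to 0.352 percentage points without 1 library and was 1.49 without thinning.

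With the replicate number as a block, 187 genes were higher and 662 lower (849 in all). Deviations of same-numbered libraries correlated at 0.265 and -0.030. These values cannot decide whether the numbers mark pairs. Both host libraries deviate from their shared mean by opposite amounts, and some Tet-TKO libraries have no same-numbered host library. The paper compares cell type proportions of each Tet-TKO sample with those of its matching WT host embryo. The main comparison was run without pairs, and the number of calls depends on that choice.

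Limits are 1 library per genotype at E7.5, 83 WT host streak cells, and a genotype that cannot be told apart from strain or from the difference in sex-linked genes.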
